A study of Drosophila melanogaster with 23 samples.

Results

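The data describe 9 genes of the fly cell death pathway, which are p53, the inducers rpr, hid, grim and skl, the inhibitor Diap1, the caspases Dronc and Drice and the caspase adaptor Dark, out of 17714 genes in the files. They were listed by symbol as the genes a senolytic, a treatment meant to kill senescent cells, would be expected to act on. All 9 of 9 matched a gene in the files, and 7 passed the filter on low counts in the ubiquitous model and 6 in the ISC model. RNA of adult Drosophila midguts was sequenced in 23 libraries, 11 from a ubiquitous model (armGal4 with tubGal80ts) and 12 from an intestinal stem cell (ISC) model (esgGal4 with tubGal80ts). Each model had a WT group expressing UAS-TdTomato, an OKSM group (UAS-OKSM, a cassette of human Oct4, Klf4, Sox2 and Myc), a Sen group (UAS-Sen, the senolytic peptide with a 3XHA tag) and an OKSM-Sen group with both transgenes. Every group had 3 libraries except ubiquitous Sen, with 2.

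All flies carried the temperature-sensitive Gal4 inhibitor tubGal80ts and were kept under white light, and the crosses of the study's methods also give both drivers UAS-GFP. The stock listed for the esg driver carried UAS-dCas9.VPR as well. The series' design text writes the WT without a driver, whereas the crosses list the same driver as in the other groups. The methods give attP2 as the insertion site of the OKSM and Sen transgenes made for the study, and no site for UAS-TdTomato. The source of the Sen peptide is given as fly foxo in one place of the study and as the Fork Head protein in another. The study describes constant expression of the transgenes in the flies used for sequencing. It reports shorter lives under constant ubiquitous expression of each construct and longer ones under cycling expression. The sources used here give neither the age and sex of the flies nor the number of guts per library. No source says that replicates came from separate cohorts, so the p-values describe spread among these libraries, which may be technical.

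In flies, as elsewhere, caspases are kept as inactive precursors. Dronc is the initiator caspase and is activated on a scaffold of Dark, the fly relative of Apaf-1, after which it cleaves effector caspases such as Drice. Diap1 is a ubiquitin ligase that binds and restrains the caspases, and rpr, hid, grim and skl encode short-lived antagonists of Diap1. The single fly p53 gene encodes a transcription factor that activates several of these antagonists after DNA damage. The midgut is renewed by stem cells, which divide to give enteroblasts and then absorptive enterocytes. It also holds hormone-secreting enteroendocrine cells.

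Depth ran from 33438269 to 46324855 assigned reads per library in the ubiquitous model and from 14626934 to 18974768 in the ISC model, so that model and depth cannot be told apart. The ISC libraries are labelled as intestinal stem cells, but 5 enterocyte markers together took 6200 to 18730 CPM (counts scaled to library size) there, against 26.93 to 72.12 CPM for the 4 stem cell and enteroblast markers found in the files. By these markers they were whole-midgut RNA, as the methods also describe. The labels record that ISC Sen replicate 3 and ISC OKSM-Sen replicate 3 had once been exchanged and were corrected, and calls that rest on them are also given without them. Ubiquitous OKSM replicate 1 stood apart in 4 of the genes described here, with the lowest Dronc, Drice and hid and the highest rpr of its model.

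Levels of different genes were compared per length, in TPM, the deposited length-corrected share of transcripts. Diap1 was the most abundant of the 9, with a median of 110.7 TPM (94.88 to 136.32) over the 11 ubiquitous and 140.4 TPM (115.95 to 165.58) over the 12 ISC libraries. The caspases followed, with medians of 18.28 and 26.3 TPM for Dronc and 17.24 and 18.9 TPM for Drice in the ubiquitous and ISC libraries. p53 lay at 8.3 and 17.6 TPM, Dark at 3.96 and 5.42 TPM and hid at 3.12 and 2.86 TPM. rpr was at most 1.7 TPM, with medians of 0.69 and 0.295 TPM. The ranges of Diap1 did not meet those of any other of these genes in either model, whereas those of Dronc and Drice overlapped.

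**Figure D1:**
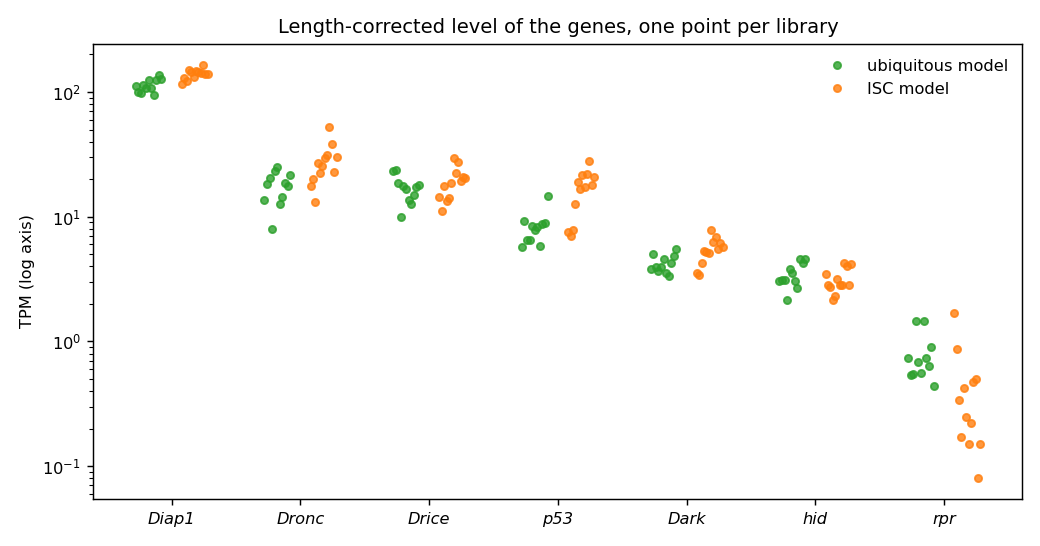
Level of 7 of the 9 genes in TPM on a log axis, with 1 point per library (11 ubiquitous, 12 ISC). Diap1 stood above all other genes in every library and rpr lay lowest, while grim and skl, at or near 0, are not drawn.

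p53 rose in all 3 ISC groups that expressed a construct and passed the test in none of the ubiquitous groups. The gene lies on the minus strand of 3R:23049657-23054082 (BDGP6.54). In the ISC model it stood at 11.57, 11.03 and 12.77 CPM in the WT libraries, at 17.81, 25.8 and 20.76 CPM with OKSM, at 27.08, 22.81 and 27.23 CPM with Sen and at 31.6, 22.49 and 24.94 CPM with OKSM-Sen. All 9 libraries with a construct lay above the highest WT library, as was so for 20.8% (OKSM), 23.6% (Sen) and 20.6% (OKSM-Sen) of all genes, and the groups with a construct overlapped each other in their order OKSM-Sen, Sen, OKSM. Relative to WT the log2 change reached 0.87 (SE 0.16, adjusted p = 0.00418) for OKSM, 1.1 (SE 0.16, adjusted p = 0.000833) for Sen and 1.17 (SE 0.16, adjusted p = 0.00119) for OKSM-Sen by edgeR's quasi-likelihood test. These calls stood under every alternative that was run, with adjusted p up to 0.0219 for OKSM, 0.00562 for Sen and 0.00772 for OKSM-Sen. Without the Sen library whose label had been corrected, the Sen value was 1.07, and without the corresponding OKSM-Sen library the OKSM-Sen value was 1.21. In RNA of whole guts, a larger share of a cell type and more RNA per cell cannot be told apart.

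Under the ubiquitous driver p53 was measured at 9.58, 14.26 and 11.67 CPM in WT, 11.72, 14.73 and 12.1 CPM with OKSM, 13.96 and 11.33 CPM with Sen and 13.78, 13.54 and 21.03 CPM with OKSM-Sen. The groups overlapped throughout, and the high OKSM-Sen mean came from replicate 3. The largest of the 3 differences, for OKSM-Sen, was 0.44 (SE 0.20, adjusted p = 0.578, edgeR's quasi-likelihood test). The p53 level of the WT libraries was 11.8 ± 2.35 CPM in the ubiquitous and 11.8 ± 0.892 CPM in the ISC model (SD, n = 3 each).

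p53 shares its locus with the antisense gene asRNA:CR46089 and with Gr94a, a gustatory receptor gene, both on the plus strand, and the sources used here do not say whether reads were counted by strand. In the ISC libraries asRNA:CR46089 held 147 to 399 counts and moved the other way from p53, by -0.84 (SE 0.16, adjusted p = 0.00414) with Sen and by -0.85 (SE 0.16, adjusted p = 0.00568) with OKSM-Sen in the same edgeR fit. With OKSM its value was -0.15 (adjusted p = 0.542). Gr94a, with 7 to 46 counts, rose by 1.85, 2.17 and 2.14 with OKSM, Sen and OKSM-Sen. p53 itself held 188 to 575 counts per ISC library, and the part of either neighbour in the p53 values was not tested. Counts of p53 were not whole numbers in 11 of 11 ubiquitous and 0 of 12 ISC libraries.

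**Figure D2:**
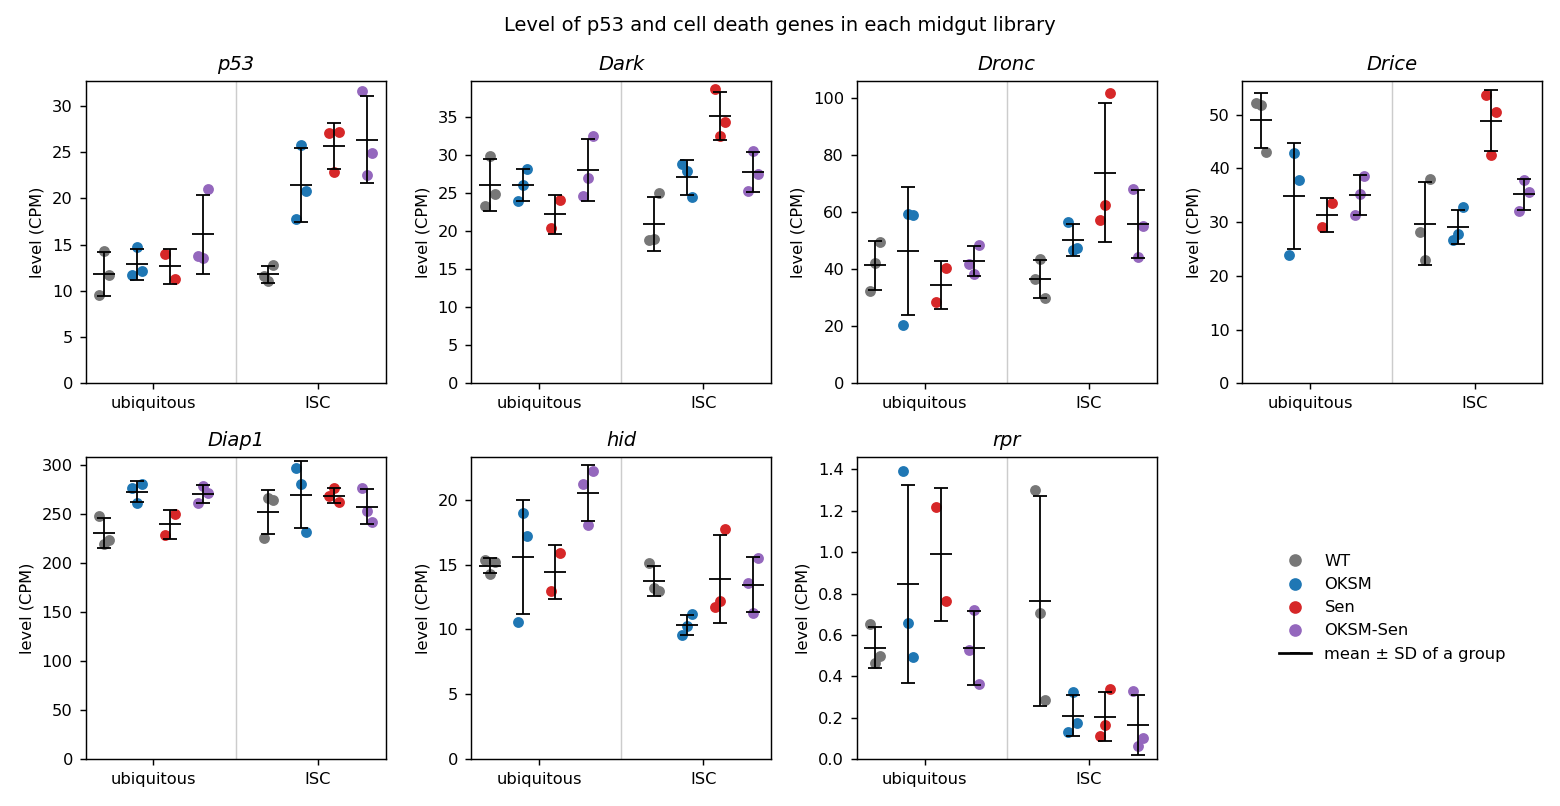
Level in CPM of the 7 genes with more than a few reads, for WT, OKSM, Sen and OKSM-Sen in both models, with 1 point per library and the mean ± SD of each group. In the ISC model every construct library lay above WT for p53 and Dronc, whereas Diap1 overlapped WT in all 3 groups. Per construct, 20.6% to 23.6% of all genes lay above WT in the same way.

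Dark, Dronc and Drice, the scaffold, the initiator and an effector of the caspase cascade, all rose with Sen in the ISC model. Dark is on the plus strand of 2R:17020027-17026703. It stood at 18.77, 18.95 and 25.03 CPM in ISC WT and at 38.67, 32.47 and 34.38 CPM with Sen. The OKSM libraries were at 28.84, 27.86 and 24.47 CPM and the OKSM-Sen libraries at 25.28, 30.55 and 27.53 CPM. Every Sen library was above every library of the other groups, while OKSM and OKSM-Sen overlapped each other and OKSM overlapped WT. Against WT alone, 23.6% of all genes were higher with Sen with no overlap. The share separated from all other groups was not determined. The log2 fold change of Dark was 0.73 with Sen (SE 0.13, adjusted p = 0.00203), 0.41 with OKSM-Sen (SE 0.13, adjusted p = 0.039) and 0.37 with OKSM (SE 0.13, adjusted p = 0.0521) by edgeR's quasi-likelihood test.

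The Sen call for Dark stood under every alternative (adjusted p up to 0.0122), and without Sen replicate 3 the value was 0.75 (0.00763). Without OKSM-Sen replicate 3 the OKSM-Sen value was 0.42 (0.092). The OKSM call was lost without WT replicate 1 (0.172), WT replicate 2 (0.171), OKSM replicate 1 (0.135) or OKSM replicate 2 (0.114) and in a fit of only the 2 groups (0.115). The OKSM-Sen call was lost without WT replicate 1 (0.133), WT replicate 2 (0.141) or OKSM-Sen replicate 2 (0.126). Dark overlaps the antisense gene asRNA:CR44390, which held 146 to 297 counts per ISC library and moved with it, by 0.42, 0.72 and 0.54 with OKSM, Sen and OKSM-Sen (adjusted p = 0.0566, 0.00453 and 0.0241 by edgeR). Without strand, reads of the pair cannot be told apart. Counts of Dark were not whole numbers in 11 of 11 ubiquitous and 0 of 12 ISC libraries. The antisense gene had a median of 34.12 counts in the ubiquitous and 230.5 in the ISC libraries. Whether the overlap was counted alike in the 2 models was not tested.

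Dronc, on the plus strand of 3L:9968479-9971002, stood at 36.31, 43.42 and 29.96 CPM in ISC WT. It was at 56.96, 62.46 and 101.7 CPM with Sen, at 56.44, 46.59 and 47.31 CPM with OKSM and at 68.1, 44.32 and 55.16 CPM with OKSM-Sen. All 9 construct libraries were above the 3 WT libraries, the nearest by less than 1 CPM, and Sen replicate 3 was far above its group. Of all genes, 20.8% (OKSM), 23.6% (Sen) and 20.6% (OKSM-Sen) were likewise higher with no overlap, and the 3 comparisons share their WT libraries. With Sen the log2 fold change was 0.99 (SE 0.24, adjusted p = 0.0125, edgeR's quasi-likelihood test), and without that library, which is also the one with the corrected label, it was 0.69 (adjusted p = 0.0374, with 0.000366 to 0.0434 over all alternatives). With OKSM-Sen it was 0.62 (SE 0.24, adjusted p = 0.0937), a call that 12 of 17 alternatives lost, with adjusted p up to 0.275, among them without OKSM-Sen replicate 3 (0.63, adjusted p = 0.173). With OKSM it was 0.46 (SE 0.24, adjusted p = 0.191) and was not called, except without Sen replicate 3 (0.098) and in a fit of only the 2 groups (0.0876), in a range up to 0.398.

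Drice, on the plus strand of 3R:29799658-29801584, passed the test over WT in the ISC Sen group only. It stood at 28.1, 22.94 and 38.09 CPM in ISC WT and at 53.72, 42.56 and 50.48 CPM with Sen. Each Sen library exceeded all libraries of the other ISC groups. Against WT alone 23.6% of all genes were higher with no overlap, and the share separated from all groups was not determined. The OKSM libraries, at 26.75, 27.73 and 32.76 CPM, and the OKSM-Sen libraries, at 32.15, 37.83 and 35.62 CPM, overlapped WT. The log2 fold change was 0.70 with Sen (SE 0.16, adjusted p = 0.00953, up to 0.0384 over the alternatives), -0.03 with OKSM and 0.25 with OKSM-Sen (SE 0.16, adjusted p = 0.307) by edgeR's quasi-likelihood test. Sen also exceeded OKSM directly, by 0.73 (SE 0.16, adjusted p = 0.0491), in a comparison where 5.04% of all genes were called and 1.98% were called higher. Without Sen replicate 3 the Sen value was 0.68 (0.0317). Without WT replicate 3 the OKSM-Sen value was 0.46 and passed (0.0341, in a range up to 0.717). The call against OKSM was lost without OKSM replicate 1 (0.103), OKSM replicate 2 (0.113), Sen replicate 1 (0.114) or Sen replicate 3 (0.157).

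Drice went the other way in the ubiquitous model without passing the test. It stood at 52.11, 51.75 and 43.03 CPM in WT, at 23.86, 42.9 and 37.81 CPM with OKSM, at 29.17 and 33.65 CPM with Sen and at 31.3, 35.33 and 38.66 CPM with OKSM-Sen. Every construct library was below every WT library, in comparisons where 6.93% (OKSM), 13.9% (Sen) and 6.8% (OKSM-Sen) of all genes were lower with no overlap. The 3 comparisons share their WT libraries. The log2 differences were -0.50 (SE 0.19, adjusted p = 0.369), -0.66 (SE 0.21, adjusted p = 0.201) and -0.48 (SE 0.19, adjusted p = 0.466) by edgeR. The Sen difference passed the threshold with DESeq2 (0.0989) and without ubiquitous OKSM replicate 1 (0.0644), within a range of 0.0644 to 0.524 over the alternatives.

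Dark and Dronc overlapped WT in all ubiquitous groups. Dark was between 20.41 and 32.52 CPM over the 11 libraries and Dronc between 20.34 and 59.25 CPM. Both extremes of Dronc belonged to the OKSM group, whose SD of 22.4 CPM was the largest of any ubiquitous group for this gene. Sen values were -0.25 (SE 0.15, adjusted p = 0.494) for Dark and -0.28 (SE 0.40, adjusted p = 0.809) for Dronc by edgeR's quasi-likelihood test.

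Diap1, on the minus strand of 3L:16038410-16051034, was called in none of the comparisons. In ISC WT it stood at 225.6, 266.2 and 263.6 CPM. The ISC construct libraries ran from 231.3 to 297.1 CPM, and the log2 differences were 0.10, 0.07 and 0.03 for OKSM, Sen and OKSM-Sen, with an SE of 0.11 each. The ubiquitous WT libraries were at 247.6, 219.2 and 223.5 CPM in WT. Diap1 stood at 276.7, 260.9 and 280.3 CPM with OKSM and at 260.9, 278.6 and 271 CPM with OKSM-Sen, all above WT. There 7.38% (OKSM) and 6.77% (OKSM-Sen) of all genes were likewise higher with no overlap. The differences of 0.24 (SE 0.09, adjusted p = 0.387) and 0.23 (SE 0.09, adjusted p = 0.482) did not pass edgeR's test.

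The inducers lie close together on the minus strand of chromosome 3L, in 272.2 kb that hold 17 annotated genes. hid (3L:18167745-18185641) was the only one that passed the filter in both models. In the ISC model it stood at 15.11, 13.2 and 12.95 CPM in WT, 9.59, 10.23 and 11.19 CPM with OKSM, 11.7, 12.23 and 17.79 CPM with Sen and 13.58, 11.25 and 15.52 CPM with OKSM-Sen. OKSM was below every WT library, as were 19.3% of all genes, and the other groups overlapped WT. The OKSM difference of -0.41 (SE 0.17, adjusted p = 0.107) missed the threshold by edgeR and passed it in 7 of 17 alternatives, in a range of 0.0544 (without Sen replicate 3) to 0.272. It also passed without Sen replicate 1 (0.0984) or OKSM-Sen replicate 2 (0.0889). With Sen and OKSM-Sen the values were -0.01 and -0.03 (SE 0.17 each).

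Ubiquitous libraries held hid at 15.36, 14.26 and 15.17 CPM in WT and at 21.24, 18.07 and 22.22 CPM with OKSM-Sen. It stood at 10.57, 18.97 and 17.22 CPM with OKSM and at 12.99 and 15.91 CPM with Sen. Only OKSM-Sen was separated from WT, as were 6.77% of all genes in that direction, by 0.46 (SE 0.19, adjusted p = 0.511, edgeR's quasi-likelihood test).

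rpr (3L:18397535-18398435) was near the limit of detection. In the ubiquitous model it held 23, 15 and 15 reads in WT, 53, 19 and 15 with OKSM, 40 and 25 with Sen and 17, 24 and 14 with OKSM-Sen. In the ISC model it held 22, 12 and 5 reads in WT, 2, 5 and 3 with OKSM, 2, 3 and 5 with Sen and 6, 1 and 2 with OKSM-Sen. The 9 ISC construct libraries together held 29 reads and the 3 WT libraries 39. The WT libraries spread from 0.286 to 1.3 CPM, and the lowest of them lay within the range of each construct group. With a mean of 5.67 reads per ISC library rpr was under the filter there and has no test, and in the ubiquitous model its Sen value was 0.86 (SE 0.51, adjusted p = 0.499, edgeR).

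grim (3L:18302719-18304417) and skl (3L:18438561-18439942) were tested nowhere. grim had no read in 7 of 11 ubiquitous and 6 of 12 ISC libraries, and its highest counts were 4.72 and 2. skl had none in 10 of 11 ubiquitous and 6 of 12 ISC libraries, and its highest counts were 1 and 2. Differences in these 2 genes were not detectable at this depth. grim overlaps asRNA:CR45974 on the other strand, which only stranded counting would separate, and lncRNA:CR45975, which lies within it on the same strand, so reads there are uncertain with either kind of counting.

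**Figure D3:**
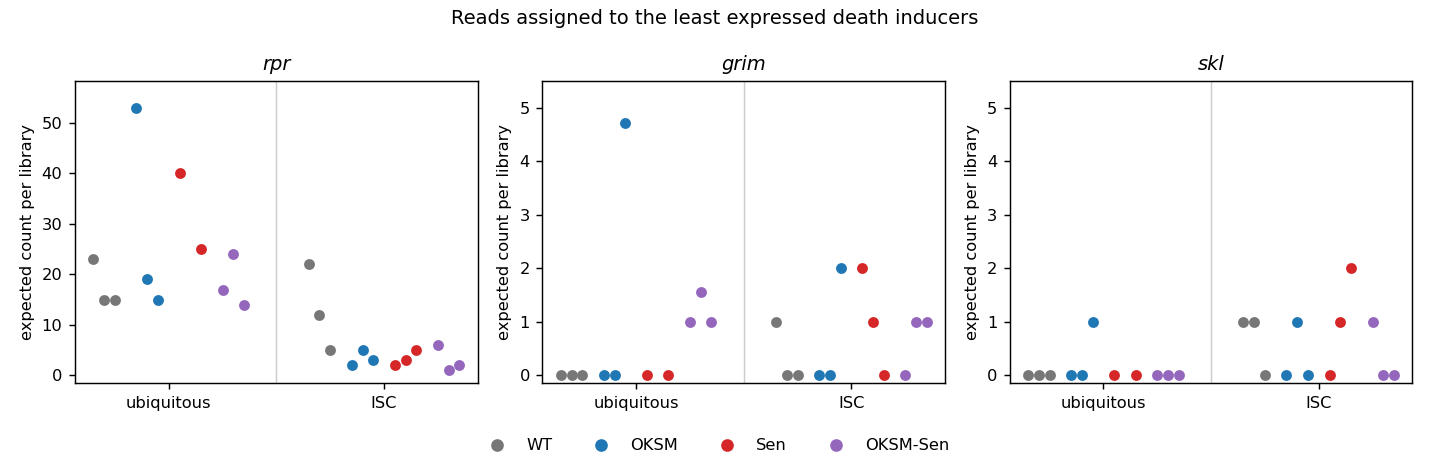
Expected counts per library of rpr, grim and skl by construct in both models, 1 point per library. rpr held 14 to 53 reads in the ubiquitous and 1 to 22 in the ISC libraries, with the highest ISC value in WT, and grim and skl never exceeded 4.72.

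In the ISC model the call rate of these genes is to be read against a background in which a large share of all genes moved. With Sen 4 of the 6 genes tested were called, all higher, where 36.5% of 9374 genes were called and 18.2% were called higher. With OKSM-Sen 3 of 6 were called, all higher, against 29% (15.7% higher), and with OKSM 2 of 6, both higher, against 32.3% (17.3% higher). Over the 4 constructs together p53, Dronc, Drice and Dark passed, 4 of 6, against 35.7%. The median log2 fold change of the 6 genes was 0.72 with Sen, 0.33 with OKSM-Sen and 0.24 with OKSM, where the median of all genes was -0.02, 0.02 and 0.01.

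edgeR called none of the 7 genes tested in any comparison of the ubiquitous model. At an unadjusted p under 0.05 there were 2 with OKSM, 1 with Sen and 3 with OKSM-Sen. DESeq2 called 0, 1 and 0 of the genes in these comparisons. The background was low, with 1.09% of 9637 genes called for OKSM, 2.48% for Sen, 1.16% for OKSM-Sen and 2.61% over the 4 constructs. The interaction called 1.06% of all genes, OKSM-Sen against OKSM 0.301%, OKSM-Sen against Sen 1.8% and Sen against OKSM 1.25%.

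**Figure D4:**
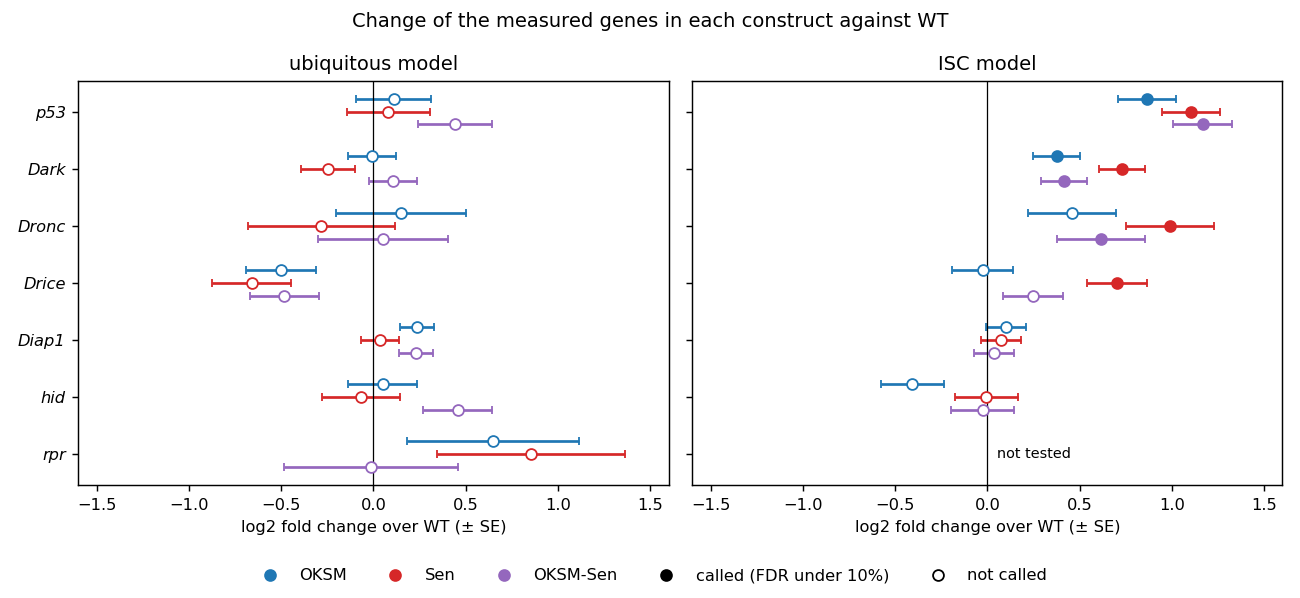
Log2 fold change over WT with its SE for OKSM, Sen and OKSM-Sen in the ubiquitous (left) and ISC model (right), with filled points for genes called at an FDR of 10%. p53 lay between 0.87 and 1.17 for all 3 constructs in the ISC model, and no point is filled in the ubiquitous model.

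Cell type markers also differed between groups. Enterocyte markers (5 genes) summed to 18660 to 19270 CPM in ubiquitous WT. Their sum there was 28650 to 34610 CPM with OKSM, 26780 to 42770 CPM with Sen and 23480 to 24430 CPM with OKSM-Sen. Most of it came from betaTry and Amy-p. By group mean, betaTry, Amy-p and Jon99Ci were higher with Sen than in WT. Myo31DF was near WT (477.1 CPM in WT, 491.3 CPM with Sen) and nub was lower (270.6 and 199.7 CPM). Of the 5, edgeR called 1 higher with OKSM, 1 with Sen and 0 with OKSM-Sen. In the ISC model their sums overlapped, at 9404 to 11610 CPM in WT and 10460 to 12360 CPM with Sen. The summed level of the 4 stem cell and enteroblast markers (Dl, Sox100B, E(spl)mbeta-HLH and klu, none at 0) was 26.93 to 33.89 CPM in ISC WT, 37.77 to 58.14 CPM with OKSM, 64.11 to 72.12 CPM with Sen and 46.72 to 58.64 CPM with OKSM-Sen. Of the 4, 1 rose with OKSM, 4 with Sen and 2 with OKSM-Sen. Their median log2 fold change was 0.41, 1.09 and 0.45 with OKSM, Sen and OKSM-Sen, and the markers differed from each other. Sox100B moved most, with means of 11.2, 24.34, 31.82 and 27.69 CPM in ISC WT, OKSM, Sen and OKSM-Sen. klu moved least, with 9.34, 9.42, 14.48 and 11.18 CPM. p53 had 11.79, 21.46, 25.71 and 26.34 CPM in the same order. The sum of the 4 stem cell and enteroblast markers in the ubiquitous model was 37.8 to 53.58 CPM in WT and 26.09 to 35.24 CPM with Sen, where 2 of 4 fell. It was 63.81 to 71.45 CPM with OKSM-Sen there. Visceral muscle markers (5 genes, none at 0) went from 806 to 951.2 CPM in ISC WT to 1377 to 1610 CPM with Sen and 1186 to 2337 CPM with OKSM. Malpighian tubule markers (3 genes) summed to 90.15 to 119 CPM in ISC WT, 207.5 to 313.1 CPM with OKSM, 147 to 348.3 CPM with Sen and 89.37 to 317.1 CPM with OKSM-Sen, with 0 of 3 called by edgeR. Between ISC WT and Sen, enteroendocrine markers (5 genes) went from 222 to 249.6 CPM to 210.1 to 219.6 CPM, and the sums of fat body, ovary and neuron and glia markers overlapped. All 3 hemocyte markers were called with Sen. Hml fell from 11.05 to 16.88 CPM in ISC WT to 2.31 to 4.61 CPM (-1.90, adjusted p = 0.0152, edgeR) and NimC1 had -1.42 (adjusted p = 0.0564), whereas Ppn rose by 0.47 (adjusted p = 0.065). With OKSM-Sen Hml fell by 1.65 and NimC1 fell by 1.96, and with OKSM Ppn rose by 0.58. Testis markers summed to at most 0.204 CPM in any library. The part of these cells in the changes of p53 and the caspase genes was not tested.

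Sen and OKSM together changed p53 and Dark by less than the sum of the single changes in the ISC model. The interaction on the log2 scale, the OKSM-Sen change minus the OKSM and the Sen change, was -0.80 for p53 (SE 0.22, adjusted p = 0.0381) and -0.69 for Dark (SE 0.18, adjusted p = 0.0289) by edgeR's quasi-likelihood test. These were 2 of 6 genes, both lower, in a test that called 21.9% of all genes and 11.4% as lower. Dronc had -0.83 (SE 0.34, adjusted p = 0.127), Drice -0.43 (SE 0.23, adjusted p = 0.241) and hid 0.39 (SE 0.24, adjusted p = 0.305). Both calls stood under all alternatives, with adjusted p up to 0.0896 and 0.0737. Without Sen replicate 3 they were -0.77 for p53 (0.081) and -0.71 for Dark (0.0537), and without OKSM-Sen replicate 3 -0.76 (0.0855) and -0.69 (0.0654). Dronc passed with DESeq2 (0.0692) and without Sen replicate 1 (0.0931) or OKSM-Sen replicate 1 (0.0857), in a range up to 0.239. Drice passed without WT replicate 3 (-0.64, 0.0344, range up to 0.422) and hid without Sen replicate 3 (0.60, 0.0941, range up to 0.526).

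OKSM-Sen was not separated from its single constructs in any of the 6 genes of the ISC model by edgeR. Against OKSM 1 gene (hid, 0.38, SE 0.17, adjusted p = 0.455) had an unadjusted p under 0.05, where 0.672% of all genes were called. Against Sen there were 2, Drice at -0.45 (SE 0.16, adjusted p = 0.331) and Dark at -0.32 (SE 0.12, adjusted p = 0.373), where 0.555% were called. DESeq2 called none of the 6 in either comparison. Between Sen and OKSM, p53 differed by 0.24 (SE 0.16, adjusted p = 0.48) and Dronc by 0.53 (SE 0.24, adjusted p = 0.278). Dark differed by 0.36 (SE 0.12, adjusted p = 0.161) and passed only without WT replicate 3 (0.0927, range up to 0.402).

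The Sen effect differed between the models for 4 of the 6 genes that passed the filter in both, all higher in the ISC model, in a joint fit of all 23 libraries, where 27.3% of 9602 genes were called, 14.2% as higher in the ISC model and 13.1% as lower. The ISC effect exceeded the ubiquitous one by 1.35 for Drice (SE 0.28, adjusted p = 0.00314), 0.96 for Dark (SE 0.19, adjusted p = 0.00278), 1.01 for p53 (SE 0.28, adjusted p = 0.0184) and 1.26 for Dronc (SE 0.47, adjusted p = 0.0729) by edgeR's quasi-likelihood test. rpr passed the filter of the joint fit only through its ubiquitous libraries (a mean of 23.6 reads, against 5.67 in the ISC libraries), so its fitted difference of -2.80 (SE 0.88) is given with no test. hid and Diap1 had 0.05 (SE 0.28) and 0.02 (SE 0.14). Of the 4 stem cell and enteroblast markers, Dl and Sox100B rose with Sen in the ISC model and fell in the ubiquitous model, whereas klu stood at 11.95 CPM in ubiquitous WT and 13.64 CPM with Sen, and rose in the ISC model.

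The calls for Drice, Dark and p53 stood under every alternative. That for Dronc was lost in 7 of 27, among them without ubiquitous Sen replicate 2 (0.248), ISC Sen replicate 3 (0.184), ubiquitous WT replicate 2 (0.109) or 3 (0.128) and ISC WT replicate 1 (0.118) or 3 (0.127), and with no filter on low counts (0.114). Without ISC Sen replicate 3, whose label had been corrected, the differences were 1.34 for Drice (0.0095), 0.99 for Dark (0.0073), 0.98 for p53 (0.0422) and 0.97 for Dronc.

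For the OKSM and OKSM-Sen effects none of these 6 genes differed between the models by edgeR, where 4.12% and 1.46% of all genes were called. These shares stand for 396 and 140 genes, which became 72 to 897 and 26 to 597 when 1 library was left out. At an unadjusted p under 0.05 there were 1 and 2 of the 6, and DESeq2 called 1 and 0. The p53 difference was 0.73 (SE 0.26, adjusted p = 0.151) for OKSM and 0.71 (SE 0.26, adjusted p = 0.202) for OKSM-Sen, where it passed for OKSM with DESeq2 (0.0974, in a range of 0.0974 to 0.319) and for OKSM-Sen without ubiquitous OKSM-Sen replicate 3 (0.93, 0.0954, range up to 0.401). Drice passed for OKSM-Sen without ISC WT replicate 3 (0.0508, range up to 0.409).

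Ratios of TPM within a library show how the pathway's parts stood to each other, and they are given as a description. In ISC WT hid stood at 0.35 to 0.458 of the p53 level, and in the ISC construct groups at 0.123 to 0.201. The ubiquitous libraries had ratios of 0.317 to 0.537. Diap1 exceeded Dronc by 6.45 to 9.3 times in ISC WT, 5.16 to 6.36 times with OKSM, 4.29 to 6.02 times with OKSM-Sen and 2.71 to 5 times with Sen. Diap1 exceeded Drice by 6.95 to 11.6 times in ISC WT and by 5.04 to 6.51 times with Sen, whereas in the ubiquitous model it did so by 4.26 to 5.23 times in WT and 6.11 to 11.6 times in the construct groups. In RNA, the ratio of Diap1 to both caspases was thus lower in the ISC Sen group than in ISC WT. The ratio to Drice was higher in the ubiquitous construct groups than in their WT, where edgeR called neither Diap1 nor Drice. The ubiquitous ratio to Dronc overlapped WT, at 4.79 to 8.09 times in WT and 4.65 to 14.3 times with OKSM. It was 6.56 to 8.44 times with Sen and 5.93 to 7.71 times with OKSM-Sen. The share of other gene pairs with separated ratios was not determined.

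Across the 23 libraries, with each gene centred on the mean of its model, p53 and Dark had a Pearson correlation of 0.711 in log2 CPM, Drice and Dark 0.662, p53 and Dronc 0.56, Dronc and Dark 0.558, Dronc and hid 0.533, Dronc and Drice 0.5 and p53 and Drice 0.342. p53 had 0.173 with hid and 0.21 with Diap1. Other genes reached such values as well. Of all genes compared, 72.7% had a lower correlation with p53 than Drice had, 87.9% a lower one than Dronc and 96.3% a lower one than Dark. For Drice, 98.1% had a lower correlation than Dark. The models differed, with 0.605 in the ubiquitous and 0.743 in the ISC libraries for p53 and Dark, 0.407 and 0.809 for Drice and Dark, 0.32 and 0.717 for p53 and Dronc, -0.0474 and 0.538 for p53 and Drice and 0.736 and 0.312 for hid and Dronc (n = 11 and 12). The points share library and depth, and no difference between the models was tested.

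Of 9195 genes, those with a pattern most like p53 were Pfdn1 (r = 0.897, rho = 0.834), a prefoldin subunit, Ntf-2 (r = 0.894, rho = 0.827), a nuclear transport factor, and Pi3K21B (r = 0.893, rho = 0.808), an adaptor subunit of PI3 kinase. Those most like Dark were Arp3 (r = 0.947, rho = 0.901), Arp2 (r = 0.941, rho = 0.841), both of the actin-branching Arp2/3 complex, and the stress kinase p38c (r = 0.94, rho = 0.903). For Drice they were the engulfment receptor drpr (r = 0.848, rho = 0.841), Abp1 (r = 0.843, rho = 0.777) and CG15695 (r = 0.835, rho = 0.829). For Dronc they were CG10098 (r = 0.808, rho = 0.894), the lipid kinase sktl (r = 0.794, rho = 0.737) and CG4080 (r = 0.789, rho = 0.81). These are likenesses over the same 23 libraries.

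Other genes of cell death moved in both directions in the ISC model. Of 20 other regulators and effectors tested, 2 rose and 4 fell with OKSM, 4 rose and 5 fell with Sen, and 2 rose and 5 fell with OKSM-Sen. The caspases Strica and Decay rose with OKSM (0.43 and 0.26), Sen (0.69 and 0.53) and OKSM-Sen (0.46 and 0.37). Dcp-1, an effector caspase close to Drice, fell by 0.79 with OKSM and by 0.66 with OKSM-Sen on the log2 scale. Tango7, a translation initiation factor subunit that also regulates Dronc, fell by 0.86, 0.67 and 0.68 with OKSM, Sen and OKSM-Sen, and Bruce, a large ubiquitin-conjugating inhibitor of cell death, fell by 0.63 with OKSM and by 0.51 with Sen. Diap2, a second inhibitor of apoptosis, fell by 0.25 with Sen, and AIF, a mitochondrial death factor, fell by 0.37 with OKSM-Sen. In the interaction Strica (-0.67) and Decay (-0.43) were lower, and Tango7 (0.84), Bruce (0.65) and Dcp-1 (0.53) higher. The median of the list lay between -0.07 and 0.07 in the 3 comparisons with WT.

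Genes of DNA damage signalling and p53 targets also split, with 3 of 14 up and 4 down for OKSM, 4 up and 3 down for Sen and 4 up and 2 down for OKSM-Sen. RnrL, the large subunit of ribonucleotide reductase, rose by 1.28, 1.63 and 1.55 and grp, the fly Chk1 kinase, by 0.56, 0.71 and 0.61 with OKSM, Sen and OKSM-Sen. Xrp1, a transcription factor induced by DNA damage in a p53-dependent way, rose by 0.43 with Sen and 0.38 with OKSM-Sen, and Irbp, the partner of Ku80 in the complex that binds broken DNA ends, by 0.64 with Sen. Ku80 rose by 0.60 with OKSM. rad50, of the break-sensing MRN complex, fell by 0.61, 0.57 and 0.54, mre11 of the same complex fell by 0.30 with OKSM-Sen, and the deacetylase gene Sirt1 fell by 0.32 with OKSM. The interaction was lower for grp (-0.66) and RnrL (-1.36) and higher for the ATR kinase mei-41 (1.07) and rad50 (0.63). The list's medians were 0.10, 0.19 and 0.26.

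In the JNK and FoxO list of 10 genes, 2 rose and 1 fell with OKSM, 4 rose and 1 fell with Sen, and 1 rose and 1 fell with OKSM-Sen. The gene that fell each time was foxo, a stress-responsive transcription factor, by 1.02, 0.97 and 0.86 on the log2 scale, with an interaction of 1.13. The JNK kinase hep rose with all 3 (0.18, 0.35 and 0.27), JNK itself (bsk) with OKSM (0.26), and the kinase Tak1 (0.24), the JNK target puc (0.48) and fly Jun (Jra, 0.46) with Sen. Medians were 0.04, 0.14 and 0.11.

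Of 9 engulfment genes, 4 rose and 1 fell with OKSM, 2 rose and 2 fell with Sen, and 3 rose and 1 fell with OKSM-Sen. drpr rose by 0.58 with Sen and had an interaction of -0.54. NimC4, a phagocytic receptor, fell by 2.07 with Sen, and mbc, a Rac activator, fell by 0.51, 0.41 and 0.35 in turn, with an interaction of 0.57. prtp, a ligand of drpr, rose by 0.22, 0.28 and 0.23, Rac1 by 0.22 with OKSM and 0.27 with OKSM-Sen, Ced-12 by 0.40 with OKSM-Sen, and Crk (0.28) and crq (0.27) with OKSM. The list's medians were 0.22, 0.15 and 0.18.

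Every change named for these 4 lists passed an FDR of 10% over all genes by edgeR's quasi-likelihood test, and the shares are to be read against the 32.3%, 36.5% and 29% of all genes called for OKSM, Sen and OKSM-Sen. edgeR called no gene of any of the 4 lists against WT or in the interaction in the ubiquitous model. At an unadjusted p under 0.05 the largest count in a list was 3, and DESeq2 called at most 2, both among the other death regulators in the interaction.

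**Figure D5:**
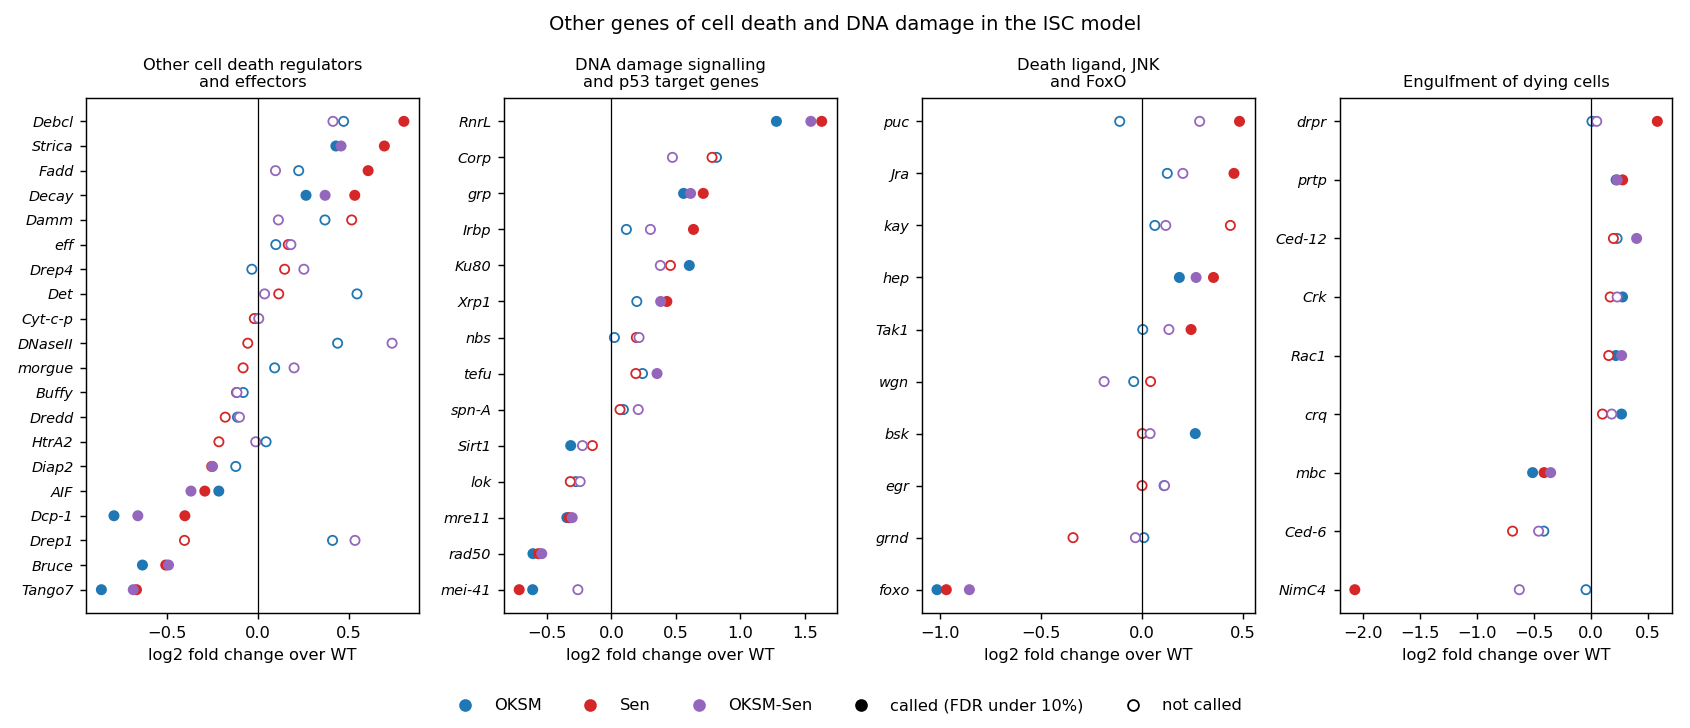
Log2 fold change over WT in the ISC model for 4 lists of further cell death and DNA damage genes (20, 14, 10 and 9 genes), coloured by construct and filled where called at an FDR of 10%. Each list holds genes on both sides of 0, with RnrL highest at 1.63 and NimC4 lowest at -2.07, both with Sen.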

How the data were processed

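RNA-seq of 23 midgut libraries was analysed from the expected counts per gene and TPM values that the authors deposited. Per the study's methods and processing notes, the authors aligned reads with STAR (2.7.1a) to BDGP6.22 (dm6) and quantified them with RSEM (1.3.1), which splits reads matching several genes, so that genes sharing sequence are uncertain. Whether strand was used in counting is a setting not given in the sources used here. The share of genes with a count that was not whole was 9.64% to 10.5% in the ubiquitous and 3% to 3.36% in the ISC libraries. Groups and replicate numbers were taken from the labels.

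Expected counts were rounded. As in the study's methods, 390 rRNA, snoRNA and snRNA genes and genes with a mean under 10 reads in a model were removed. Each model was fitted apart over its 4 constructs with edgeR (4.0.16, R 4.3.3), TMM scaling and the robust quasi-likelihood test, and p-values were adjusted by Benjamini-Hochberg over all genes, with calls at an FDR of 10%. Differences between models came from 1 fit of all 23 libraries. CPM values use TMM over 23 libraries. Log2 CPM for correlations used a prior count of 2. Positions are from BDGP6.54, with symbols for 17587 of 17714 gene identifiers. The symbols Tango7, Ced-6, Dl and nos were matched through their current names, and the stem cell marker esg was not matched. Scripts were tested on simulated data. DESeq2 (1.42.0), its size factors, no filter, the replicate number as a block, fits of only the groups compared and leaving out each library were run as alternatives.

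The 9 genes and the lists were chosen with earlier results of these data known. All 9 were described. Of the lists, genes called against WT or in the interaction were named, at most 5 per list and comparison by smallest p, and the 3 genes most correlated with p53 and with each of the genes called over the 4 constructs. Cell type marker lists were summed in CPM per library. No columns of other samples were present. No 2 libraries of a group agreed within counting noise, as the chi-square per gene was at least 50.6 in the ubiquitous and 22.3 in the ISC model.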

Additional observations from a re-analysis of the deposited data

Results flagged for a closer look

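The change of 4 genes with Sen differed between the ubiquitous and the ISC model in a test of the difference itself (edgeR's quasi-likelihood test over 23 libraries, FDR under 10%). The ISC minus ubiquitous difference in log2 fold change was 1.01 for p53, 1.26 for Dronc, 1.35 for Drice and 0.96 for Dark, each higher in the ISC model. The models differ in driver, depth, the share of counts that were not whole and any batch that went with them, which cannot be told apart. rpr had a fitted difference of -2.80, which is given as a value only: it was under the count filter in the ISC model, with a mean of 5.67 reads per library, and entered the joint fit through its ubiquitous libraries.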

How the results depend on the processing

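Of 112 fold changes of single genes, 17 were called, 83 were called under no setting, and none of those called under any setting reversed. The 17 include the rpr difference of the Sen effect between the models, which is given above as a value only. The number of the genes called moved as follows. With DESeq2, 1 gene was called for ubiquitous Sen over WT (0 by edgeR) and 1 for the model difference of the OKSM effect (0 by edgeR). Leaving out each library in turn gave 0 to 1 for ubiquitous Sen over WT, 1 to 4 for ISC OKSM over WT, 1 to 3 for ISC OKSM-Sen over WT, 0 to 2 for ISC Sen over OKSM, 0 to 1, 3 to 5 and 0 to 1 for the model difference of the OKSM, Sen and OKSM-Sen effects, with rpr among the genes counted in these last 3.

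The replicate numbers did not meet the rule for pairing, a correlation over 0.1 in every same-numbered pair. In the ubiquitous model 7 of 15 such pairs were over 0.1 (median 0.0892, range -0.368 to 0.474), against 9 of 30 pairs of unlike number (median -0.0503), and in the ISC model 3 of 18 (median -0.0108) against 14 of 36 (median -0.0339). With the replicate block 3 of the genes were called over the 4 ISC constructs, 3 for ISC OKSM, 4 for ISC Sen and 2 for ISC OKSM-Sen over WT, 1 for ISC Sen over OKSM, 2 in the ISC interaction, 5 for the model difference of the Sen effect and 0 in every ubiquitous comparison. The 5 for the model difference include rpr, whose value has no test of its own here.

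Counts over all genes moved more in the ubiquitous model, where 252 genes over the 4 constructs by edgeR became 1087 with DESeq2, 153 with the block and 145 to 272 without 1 library. Against WT, 105, 239 and 112 genes for OKSM, Sen and OKSM-Sen became 427, 633 and 341 with DESeq2 and 60, 143 and 64 with the block, and 37 to 115, 71 to 325 and 55 to 110 without 1 library. In the ISC model 3028, 3417 and 2719 became 3166, 3504 and 2838 with DESeq2, and leaving out 1 library gave down to 1890, 2492 and 1633. With DESeq2 the share of higher calls went from 84.6% to 61% for ISC OKSM-Sen over Sen, from 39.4% to 50.9% for ISC Sen over OKSM and from 42.9% to 56.9% for the model difference of the OKSM-Sen effect. Depth limits rpr, grim and skl, with at most 53, 4.72 and 2 reads per library.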
